A study of Mus musculus with 72 samples.

Results

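The 8 genes described here carry the growth hormone signal in the liver or are read out from it: the receptor gene Ghr, the transcription factor genes Stat5a and Stat5b, the feedback genes Socs2 and Cish, and the genes Bcl6, Cux2 and Onecut1 of liver transcription factors. They were taken by symbol from the table of sense gene counts, where all 8 of 27846 genes were found, and all 8 were among the 15066 genes with enough reads to be tested. Growth hormone binds its receptor, the kinase JAK2 bound to the receptor phosphorylates STAT5 proteins, and these enter the nucleus and switch on genes such as Cish and Socs2, whose proteins damp the signal. The pituitary of male rodents releases growth hormone in sharp pulses and that of females releases it more evenly, and this difference is known to set many differences between male and female livers. BCL6 and CUX2 are repressors known in mouse liver for a male and a female bias, and both act on sex-dependent genes that STAT5 also controls.

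Livers came from 4 classes of mice: misaligned females, control females, misaligned males and control males, where misaligned means chronic circadian misalignment, a long mismatch between the external schedule and the internal clock. The labels give neither the schedule of the misalignment nor the hour at which lights came on. Each class was sampled at 00:00, 04:00, 08:00, 12:00, 16:00 and 20:00 with 3 biological replicates at each time, which gives 18 livers a class, 24 groups and 72 libraries. All mice, controls included, were wild type C57bl6 animals of 8 to 16 weeks with free access to food, were kept in 12 h of light and 12 h of darkness per the growth protocol, and changed from chow to a diet with 42% of calories from fat when the paradigm began. Whole liver was sequenced after poly(A) selection with a stranded kit, so a level is a mean over all liver cells, and fewer cells of a type and less RNA per cell cannot be told apart.

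Sense counts assigned to a single gene totalled 11551524 to 12529963 per library, and 18013 to 19246 genes had at least 1 count. Xist, transcribed from the inactive X chromosome, had at least 2508 counts in every female liver and at most 4 in every male liver, which matches the sex labels of all 72 libraries. The marker genes chosen for hepatocytes (Alb, Ttr, Apoa1 and others) summed to between 68001 and 136780 CPM (counts scaled to library size, per 1e6 reads) in every liver, and those for Kupffer cells, the resident macrophages, to between 238 and 2154 CPM. No marker gene of any of the 8 cell type lists was at 0 over a whole class. Among the 19 core clock genes, 15 passed a test for a 24 h rhythm in misaligned females (7.69% of all tested genes did) and 15 in control females (12%), 0 in misaligned males (0.00664%, which is 1 of 15066 genes) and 14 in control males (10.8%).

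Per kilobase of exon, Ghr was the most abundant of the 8 genes at 41.8 CPM per kb averaged over all 72 livers. Stat5b followed at 10.3 CPM per kb, Bcl6 at 3.64, Stat5a at 2.81, Cish at 1.82, Cux2 at 1.29 and Socs2 at 1.19 CPM per kb. Onecut1 was lowest at 0.512 CPM per kb in these counts, which leave out ambiguous reads. Those were 68.7% of its reads and at most 8.50% for any other of the 8 genes, so its place in this order is uncertain. The order of the other genes below Stat5b is uncertain too. The length used was that of all annotated exons, which can exceed that of the mRNA. For Cish that length was 6.42 kb, in a gene that spans bases 107296026 to 107302784. The Cux2 mean came almost wholly from female livers, which held 11096 of its counts, against 116 in male livers.

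**Figure D1:**
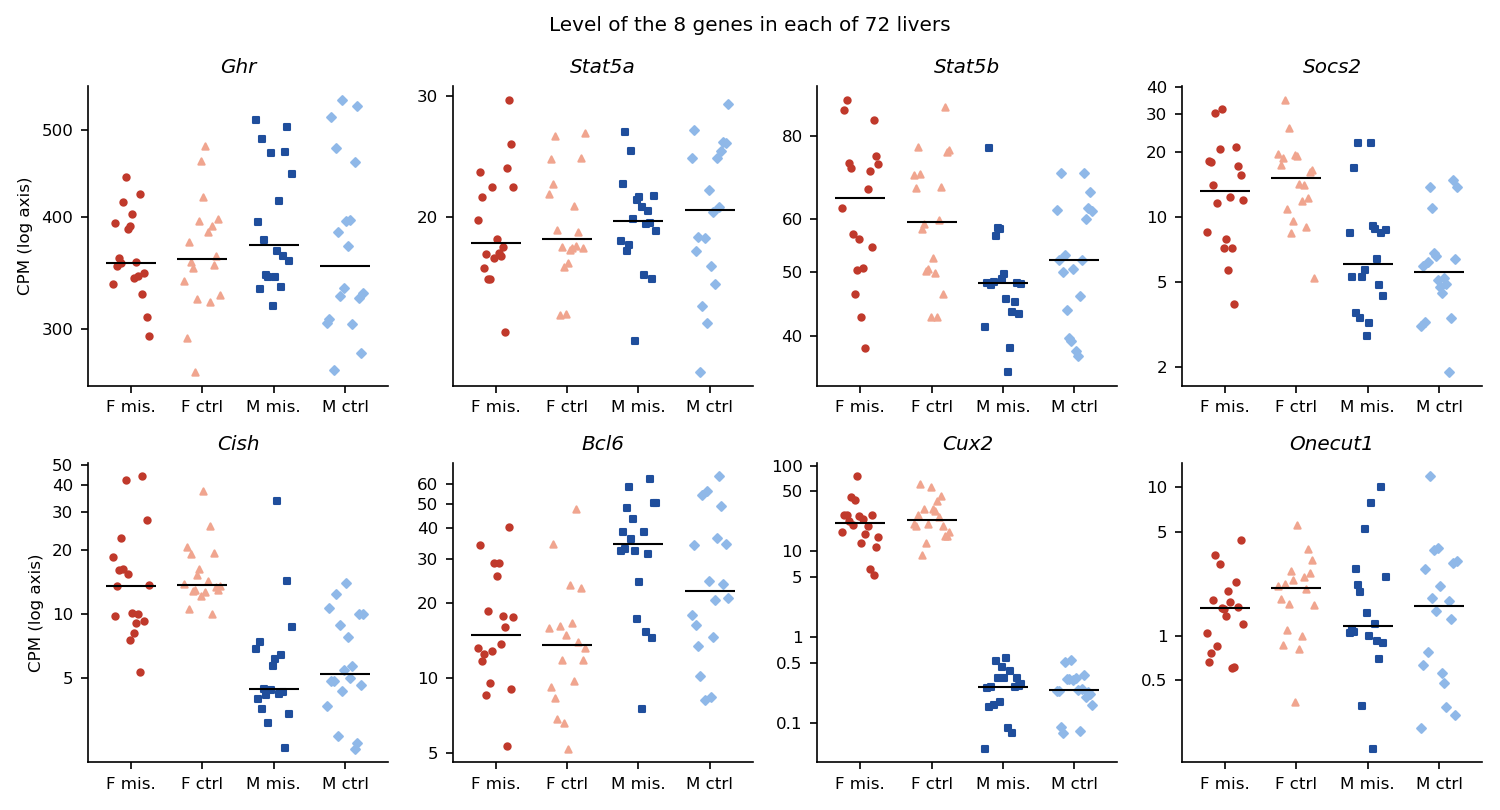
Level of each gene in every liver, in CPM on a log axis, with misaligned (mis.) and control (ctrl) females left of misaligned and control males. Each point is 1 liver, the line is the median of 18, and 1 male liver with 0 Cux2 reads is drawn at 0.05 CPM. Cux2 separates the sexes fully, while the misaligned and control livers of a sex overlap for every gene.

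Ghr (ENSMUSG00000055737, chromosome 15, 3317760 to 3583492, minus strand, GRCm38) encodes the growth hormone receptor. Its level was 295 to 444 CPM in misaligned females with a median of 356 CPM, and 269 to 480 CPM in control females with a median of 359 CPM. In misaligned males it was 319 to 514 CPM with a median of 372 CPM, and in control males 270 to 541 CPM with a median of 353 CPM. The ranges of the 4 classes overlapped almost completely. Misaligned females differed from control females by 0.00 ± 0.08 on the log2 scale (SE; edgeR quasi-likelihood adjusted p = 1), and misaligned males from control males by 0.07 ± 0.08 (adjusted p = 0.907). The 95% intervals of these differences, in counts over all Ghr transcripts together, were -0.16 to 0.16 in females and -0.09 to 0.23 in males.

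Reads across splice junctions separate 2 forms of the Ghr product, which share their first exons and part after the exon annotated as number 8 of transcript Ghr-201. Joined to the exon that starts the transmembrane part, the mRNA encodes the full receptor. Joined instead to an exon with its own end, used in transcript Ghr-203, it encodes the soluble growth hormone binding protein of mouse. The junction to the short form (chromosome 15, 3327687 to 3327973) had 18894 reads over all livers, and the junction to the receptor form (3325989 to 3327973) had 1730. The receptor form took 8.52% ± 3.46 of these reads in misaligned females and 6.96% ± 2.97 in control females (SD, n = 18 each). In males it took 9.64% ± 4.92 in misaligned and 8.69% ± 2.86 in control livers (SD, n = 18 each). Coverage along the transcripts was uneven. In misaligned females 1420 reads entered exon 2, against 4442 at the short junction and 405 at the receptor junction. The shares are therefore of junction reads and need not equal shares of mRNA molecules. These shares overlapped between all classes, and in edgeR's test of junction use neither junction differed with misalignment or with sex (adjusted p = 1 in each of 4 comparisons).

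A second Ghr feature did differ. A junction from the first exon of transcript Ghr-202 (chromosome 15, 3471400 to 3471644) to exon 2 carried 231 reads, against 4134 from the first exon at 3583000 to 3583230. It made up 5.53% ± 3.67 of reads entering exon 2 in misaligned females and 7.23% ± 4.08 in control females, against 2.37% ± 3.4 in misaligned males and 1.84% ± 2.23 in control males (SD, n = 18 each). No such read was found in 2 misaligned and 1 control female livers, or in 7 misaligned and 7 control male livers, and single livers of the sexes overlapped. Its use relative to the rest of Ghr was higher in control females than in control males by 1.37 on the log2 scale (edgeR adjusted p = 2.93e-04), the 1 called junction among those of the 8 genes, where 0.302% of 78088 junctions were called. No junction of Socs2 or Onecut1 had enough reads to be tested. Between misaligned females and males the difference was 1.00 (adjusted p = 0.163), and no member junction was called there, where 0.379% of all junctions were. No member junction was called for misalignment in females, where 0.0154% of junctions were, or in males, where 0% were. With few reads per liver, these shares are set by small counts.

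**Figure D2:**
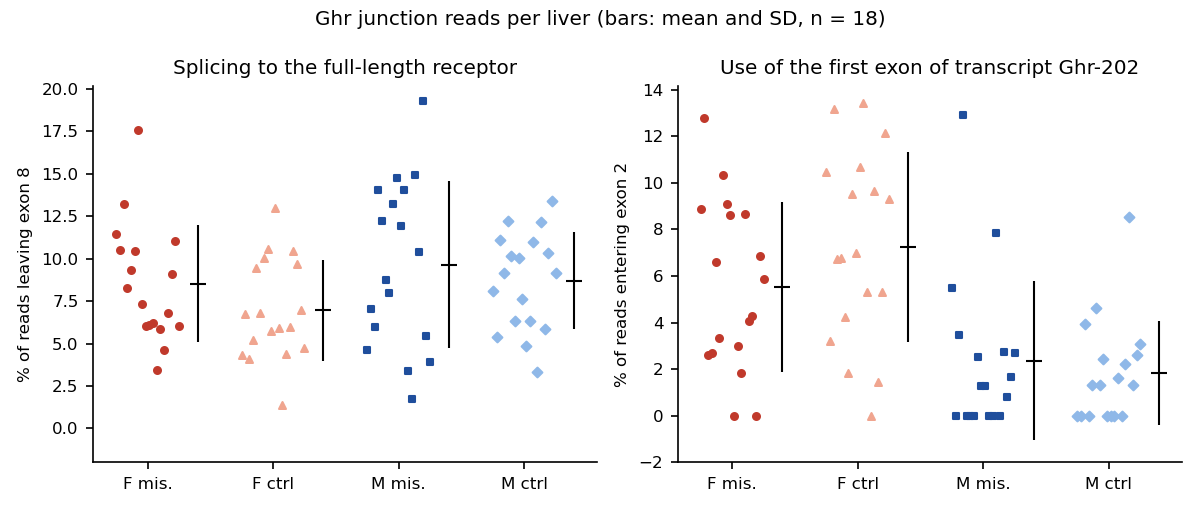
Ghr junction reads in every liver: the percent of reads leaving exon 8 that join the receptor form (left) and the percent entering exon 2 that come from the first exon of Ghr-202 (right). Points are livers, and bars give the mean and SD of 18. The receptor form averaged 6.96% to 9.64% in the 4 classes, and the Ghr-202 exon was higher in female than in male control livers.

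Stat5b (ENSMUSG00000020919, chromosome 11, 100780731 to 100850724, minus strand) encodes the STAT5 protein on which sex-dependent liver expression mainly rests in mice. It ranged over 38.4 to 90.9 CPM in misaligned females (median 64.5) and 42.7 to 88.6 CPM in control females (median 59.4). In misaligned males it ranged over 35.3 to 76.8 CPM (median 48), and in control males over 37.3 to 70.5 CPM (median 52.1). Female medians lay above male medians, but the ranges of the sexes overlapped widely. Averaged over clock times, Stat5b was higher in misaligned females than in misaligned males by 0.36 ± 0.07 log2 (1.29-fold, edgeR adjusted p = 1.08e-05), and higher in control females than in control males by 0.21 ± 0.07 (1.15-fold, adjusted p = 0.0115). The control difference missed the threshold when all livers with replicate number 1 (0.13, adjusted p = 0.276) or 2 (0.19, adjusted p = 0.12) were left out. The difference from misalignment was 0.05 ± 0.07 in females (adjusted p = 0.916) and -0.10 ± 0.07 in males (adjusted p = 0.849).

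Stat5a (ENSMUSG00000004043, chromosome 11, 100859351 to 100885169, plus strand) lies beside Stat5b on the opposite strand and encodes the closely related second STAT5 protein. Its level was 13.6 to 29.6 CPM in misaligned females (median 18.3) and 14.4 to 26.4 CPM in control females (median 18.6). It was 13.2 to 26.6 CPM in misaligned males (median 19.7) and 11.9 to 29.2 CPM in control males (median 20.5). The classes could not be separated by level. Females differed from males by -0.01 ± 0.08 log2 among misaligned livers (adjusted p = 0.92) and by -0.05 ± 0.08 among controls (adjusted p = 0.696), with 95% intervals of -0.17 to 0.14 and -0.20 to 0.11. The annotated spans of the 2 neighbours do not overlap. With ambiguous reads counted too, Stat5a had 18561 reads over all livers in place of 17381 (6.36% ambiguous) and Stat5b 50259 in place of 49140 (2.23%).

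Of the feedback genes, Socs2 (ENSMUSG00000020027, chromosome 10, 95385362 to 95417180, minus strand) encodes a protein that binds the activated receptor and leads to its degradation. It was at 3.95 to 31.7 CPM in misaligned females (median 13.2) and at 5.22 to 35 CPM in control females (median 15.2). In misaligned males it was at 2.79 to 22.1 CPM (median 6.02), and in control males at 1.89 to 14.8 CPM (median 5.56). Female medians were more than those of either male class, with overlapping ranges. Females had more Socs2 by 0.82 ± 0.24 log2 among misaligned livers (1.77-fold, edgeR adjusted p = 0.00542) and by 1.33 ± 0.25 among controls (2.51-fold, adjusted p = 2.83e-05). The difference among misaligned livers was 0.85 without replicates numbered 1 (adjusted p = 0.0558) and 0.68 without those numbered 3 (adjusted p = 0.08). Misalignment itself gave -0.11 ± 0.23 in females (adjusted p = 0.949) and 0.39 ± 0.26 in males (adjusted p = 0.854), with a male 95% interval of -0.12 to 0.91.

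Cish (ENSMUSG00000032578, chromosome 9, 107296026 to 107302784, plus strand) encodes CIS, the founding member of the same protein family and a direct STAT5 target. It was at 5.36 to 44.2 CPM in misaligned females (median 13.6) and at 10 to 37.8 CPM in control females (median 13.6). In misaligned males it was at 2.36 to 33.9 CPM (median 4.46), and in control males at 2.35 to 14.0 CPM (median 5.26). Control females and control males overlapped between 10 and 14.0 CPM alone, and the overlap among misaligned livers was wider. Females had more Cish by 1.35 ± 0.26 log2 among misaligned livers (2.54-fold, edgeR adjusted p = 4.53e-05) and by 1.33 ± 0.26 among controls (2.51-fold, adjusted p = 6.55e-05). Misalignment gave 0.00 ± 0.24 in females (adjusted p = 1) and -0.02 ± 0.28 in males (adjusted p = 0.996).

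Bcl6 (ENSMUSG00000022508, chromosome 16, 23965052 to 23988852, minus strand) encodes a repressor that is itself turned down by growth hormone in mouse liver. It was at 5.32 to 40.3 CPM in misaligned females (median 14.8) and at 5.19 to 47.8 CPM in control females (median 13.6). In misaligned males it was at 7.53 to 63.1 CPM (median 34.6), and in control males at 8.12 to 64.7 CPM (median 22.3). Every class held livers at both ends of nearly the same range, with male medians above female medians. Females had less Bcl6 by -0.97 ± 0.27 log2 among misaligned livers (edgeR adjusted p = 0.00384) and by -0.78 ± 0.28 among controls (adjusted p = 0.025). The control difference was lost with each of 3 control male livers left out: replicate 2 at 00:00 (-0.70, adjusted p = 0.0502), replicate 3 at 04:00 (-0.59, adjusted p = 0.0913) and replicate 2 at 08:00 (-0.64, adjusted p = 0.0688). It was also lost when livers numbered 1, 2 or 3 were dropped as a set (adjusted p = 0.0562, 0.158 and 0.102), and the difference among misaligned livers was lost without replicates numbered 3 (-0.78, adjusted p = 0.0805). Misalignment gave 0.19 ± 0.28 in females (adjusted p = 0.925) and 0.39 ± 0.27 in males (adjusted p = 0.868).

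The promoters of Cish and Bcl6 are printed because these 2 genes differed in opposite directions between sexes and between livers, as described further on. A further reason is that, among the 7 genes with a promoter window, theirs alone held the STAT5 motif TTCNNNGAA. The sequences are RefSeq windows on GRCm38.p6, read 5′ to 3′ on the gene's strand, with the motif in capitals. The Cish window is chr9:107296409-107296678 on the plus strand, the 250 bases before the start and the 20 after it. Those of Bcl6 are the 250 bases before each of 2 annotated starts on the minus strand, chr16:23988853-23989102 for the outer and chr16:23981284-23981533 for the inner start.
Cish: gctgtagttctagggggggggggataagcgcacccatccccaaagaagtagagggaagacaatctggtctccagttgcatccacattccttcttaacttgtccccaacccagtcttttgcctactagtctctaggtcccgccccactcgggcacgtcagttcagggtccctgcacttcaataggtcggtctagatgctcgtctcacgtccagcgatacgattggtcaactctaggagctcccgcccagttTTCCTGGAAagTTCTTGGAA
Bcl6 outer start: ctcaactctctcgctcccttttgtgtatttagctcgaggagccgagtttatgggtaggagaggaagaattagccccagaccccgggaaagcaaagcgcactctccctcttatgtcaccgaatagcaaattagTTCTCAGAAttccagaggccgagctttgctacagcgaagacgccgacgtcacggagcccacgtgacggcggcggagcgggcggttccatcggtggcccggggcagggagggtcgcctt
Bcl6 inner start: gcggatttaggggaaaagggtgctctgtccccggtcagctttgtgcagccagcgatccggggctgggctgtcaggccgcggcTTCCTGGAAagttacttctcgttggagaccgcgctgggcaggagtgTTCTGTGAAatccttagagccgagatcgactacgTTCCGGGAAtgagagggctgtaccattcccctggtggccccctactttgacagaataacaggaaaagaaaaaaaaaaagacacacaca
The motif is its own reverse complement, so 1 search covers both strands. Cish held 2 copies, at bases 1 and 12 of the transcribed part, with 2 bases between them. Bcl6 held 1 copy at base -118 of the outer start and 3 copies at bases -168, -122 and -88 of the inner start. Windows of 300 bases, 250 before to 50 after the start, were found for 7 of the 8 genes. Socs2 had no window and was not searched, and those of Ghr, Stat5a, Stat5b, Cux2 and Onecut1 had no match. Of all 27025 genes with a window, 9.55% held a match in some window. Of all 32851 RefSeq promoter windows of this length, 8.3% held at least 1 copy, 0.457% at least 2 and 0.0335% at least 3. A match describes the letters and does not show that STAT5 binds there.

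Cux2 (ENSMUSG00000042589, chromosome 5, 121856366 to 122050102, minus strand) encodes a repressor known to be specific to female mouse liver, and it had the widest sex difference of the 8 genes. It was at 5.37 to 75.2 CPM in misaligned females (median 21.3) and at 9.03 to 61.1 CPM in control females (median 23.2). In misaligned males it was at 0 to 0.573 CPM (median 0.266), and in control males at 0.0771 to 0.545 CPM (median 0.240). Every female liver was above every male liver. Male livers had 0 to 7 Cux2 counts each, so differences among males were not detectable at this depth. The female level was higher by 6.29 ± 0.28 log2 among misaligned livers (78.0-fold, edgeR adjusted p = 8.07e-27) and by 6.65 ± 0.28 among controls (100.3-fold, adjusted p = 4.27e-28). Misaligned females differed from control females by -0.30 ± 0.17 (adjusted p = 0.79), with a 95% interval of -0.63 to 0.03.

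Onecut1 (ENSMUSG00000043013, chromosome 9, 74861921 to 74891781, plus strand) encodes HNF6, a liver transcription factor known in the rat to activate a female-specific cytochrome P450 gene. Its gene counts were few: 0.602 to 4.38 CPM in misaligned females (median 1.52), 0.354 to 5.60 CPM in control females (median 2.10), 0.173 to 9.99 CPM in misaligned males (median 1.15) and 0.239 to 11.9 CPM in control males (median 1.58). All classes overlapped, and the highest livers were male. Counting ambiguous reads too gave 5807 reads over all livers in place of 1818, so 68.7% of its reads were ambiguous, and what made them so was not tested. A deposited window of 5000 bases just beyond the annotated end (74891782 to 74896781, same strand) held 19852 reads, 10.9 times the gene's own count.

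Window counts were 101 to 1121 per liver in misaligned females (median 204) and 96 to 576 in control females (median 268). In misaligned males they were 64 to 769 (median 153), and in control males 51 to 769 (median 171). Each class spanned a wide range, and all overlapped. In edgeR fits over 1759 such windows, the Onecut1 window differed between females and males by 0.42 ± 0.31 log2 among misaligned livers (adjusted p = 0.325) and by 0.38 ± 0.31 among controls (adjusted p = 0.423). These comparisons called 32.2% and 24.4% of all windows. The gene counts gave -0.35 ± 0.40 (adjusted p = 0.521) and 0.16 ± 0.38 (adjusted p = 0.785) for the same comparisons, so the sign for misaligned livers depended on which reads were counted. Misalignment gave 0.15 ± 0.31 in the female window (adjusted p = 0.946) and 0.10 ± 0.32 in the male window (adjusted p = 0.986), with 0% of windows called in either sex. The Onecut1 window was not called rhythmic in any class, with fitted amplitudes of 0.50 to 0.53 except for 0.30 in control females. Rhythms were called for 6.48% of all windows in misaligned females, 9.72% in control females, 0% in misaligned males and 6.08% in control males. Nor was its rhythm change called in females (0% of windows) or in males (0.98, edgeR adjusted p = 0.417, 4.83% of windows).

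Counted together, 5 of the 8 genes differed between females and males among misaligned livers, 4 higher in females (Stat5b, Socs2, Cish and Cux2) and 1 lower (Bcl6), where 37.7% of all tested genes were called, 17.8% higher and 19.9% lower. The same 5 genes were called in the same directions among controls, where 32.9% of all genes were, 16% higher and 17% lower. The median difference over the 8 genes was 0.17 among misaligned livers and 0.18 among controls, against 0.01 and 0.01 over all tested genes. Ghr, Stat5a and Onecut1 were not called in either.

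Cell type markers were also compared between the sexes, where 37.7% of all tested genes were called among misaligned livers and 32.9% among controls. The counts given below for hepatocyte, B cell, T and NK cell and bile duct markers lie near or below these shares. So do those for Kupffer cell, stellate cell and erythroid markers among misaligned livers, and for endothelial markers among controls. Such counts are no result about those cells. Of 7 Kupffer cell markers, 3 were higher in females among misaligned livers and 5 among controls, and their sums had medians of 660 CPM in misaligned females, 677 CPM in control females, 498 CPM in misaligned males and 481 CPM in control males. Of 7 hepatocyte markers, 3 and 2 were higher in females, with summed medians of 105170, 106100, 81784 and 81000 CPM in the same order of classes. Of 6 endothelial markers, 4 and 3 were higher. Of 7 stellate cell markers, 1 was higher and 2 lower in misaligned females, and 0 were higher and 4 lower in control females. Of 6 erythroid markers, 0 were higher and 1 lower in misaligned females, and 5 were higher and 1 lower in control females. Of 6 B cell markers 0 and 1 were higher, of 6 T and NK cell markers 1 and 2, and of 5 bile duct markers 1 was higher and 1 lower in misaligned females and 0 were higher and 2 lower in control females. The part of these cell types in the differences of the 8 genes was not tested.

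For misalignment, 0 of the 8 genes passed the threshold in females, in males, or in the difference between the 2 changes, and 0 had an unadjusted p under 0.05 in any of the 3 edgeR comparisons. Over all genes 1 (0.00664%) was called in females, 0 (0%) in males and 0 (0%) for the difference between sexes, with 1006, 932 and 859 of 15066 at an unadjusted p under 0.05. DESeq2 and limma-voom also called 0 of the 8 genes. Leaving aside Onecut1 and the few Cux2 reads of males, the widest 95% intervals were those of Bcl6 in females, -0.37 to 0.75, and of Cish in males, -0.58 to 0.53.

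**Figure D3:**
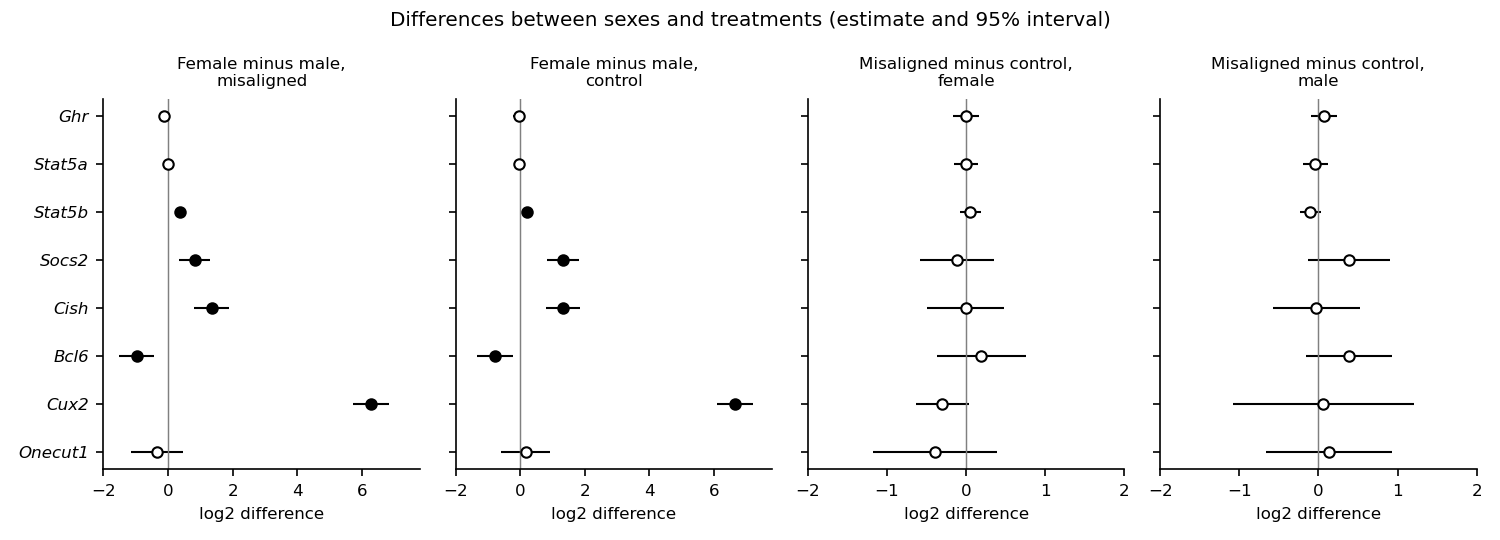
Differences in log2 level for the 8 genes with 95% intervals, female minus male in misaligned and in control livers, then misaligned minus control in females and in males. Filled points passed an adjusted p of 0.05. The female minus male panels have 5 filled points each and the misalignment panels none.

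Intron reads come mostly from unspliced RNA and give a second readout of the same genes from another deposited table. Counts were summed over all annotated introns of a gene, and the sums totalled 844454 to 892396 per library. Some of these introns overlap, so a read may be counted more than once. Cux2 introns had 2183 counts in misaligned females and 2167 in control females, against 28 in misaligned males and 37 in control males. This is a difference of 6.90 ± 0.34 log2 among misaligned livers (edgeR adjusted p = 1.36e-28) and of 6.03 ± 0.31 among controls (adjusted p = 8.97e-28). Socs2 introns had 266 counts in misaligned females and 317 in control females, against 73 in misaligned males and 94 in control males. The difference was 1.76 ± 0.38 among misaligned livers (edgeR adjusted p = 4.86e-04) and 1.80 ± 0.36 among controls (adjusted p = 1.42e-04). With overlapping introns left out, the Socs2 counts were 75, 87, 16 and 22 in the same order of classes. Those of Cux2 were 1149, 1206, 12 and 13. Thus both genes showed the female excess in intron reads too. Cish introns differed by 0.78 ± 0.34 among misaligned livers (adjusted p = 0.114) and by 1.15 ± 0.33 among controls (adjusted p = 0.0114).

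Bcl6 introns were lower in females by -0.40 ± 0.19 in both comparisons, without reaching the threshold (adjusted p = 0.138 among misaligned livers and 0.153 among controls). Stat5b introns differed by 0.12 ± 0.17 among misaligned livers (adjusted p = 0.699) and by -0.04 ± 0.17 among controls (adjusted p = 0.915). The exon difference of Stat5b was thus not seen in its introns at their depth of 22 to 191 summed counts per liver. In all, 2 of the 8 genes were called on introns among misaligned livers, where 17.3% of 11293 genes were, and 3 among controls, where 14.7% were. Misalignment called 0 of the 8 on introns in either sex or in the difference between sexes, and 0% of all genes.

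Level by clock time was compared through a 24 h cosine fitted in each class, whose amplitude is the log2 distance from the mean to the peak. A difference between rhythms is given as the amplitude of the cosine by which they differ. A rhythm of Stat5b was called in 3 of the 4 classes. In misaligned females it was 62.4, 87.6 and 90.9 CPM at 00:00 and 42.7, 50.7 and 38.4 CPM at 12:00, and in control females it was 88.6, 75.9 and 76.3 CPM at 20:00 and 52.4, 49.8 and 42.7 CPM at 12:00. The 2 times did not overlap in either class, but they had means at or near the highest and lowest of the class. This gap is therefore no support beyond the fit. In misaligned females the amplitude was 0.43 ± 0.06 and the fitted curve crested at 22.6 h (SE; edgeR adjusted p = 1.04e-05), and in control females the amplitude was 0.38 ± 0.06 and the crest fell at 22.1 h (adjusted p = 5.51e-05). The female rhythms differed by 0.07 (adjusted p = 0.969).

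In misaligned males Stat5b was 58.3, 57.9 and 48.8 CPM at 08:00, 49.6, 45.5 and 35.3 CPM at 12:00 and 48.1, 43.1 and 48 CPM at 20:00, whereas in control males it was 39.7, 39.3 and 50.5 CPM at 08:00, 37.9, 37.3 and 45.9 CPM at 12:00 and 62.5, 65.9 and 61.8 CPM at 20:00. At 20:00 every misaligned male liver was below every control male liver. At 08:00 the ranges just overlapped, with 2 of the 3 misaligned livers above every control liver. These times were picked from all those sampled, so the gap at 20:00 is no support beyond the fit. In misaligned males the fitted amplitude was 0.19 ± 0.06 with its crest at 3.41 h (adjusted p = 0.487), and in control males 0.35 ± 0.06 with its crest at 20.9 h (adjusted p = 4.11e-04). The rhythm of misaligned males differed from that of control males by 0.42 (edgeR adjusted p = 0.0037), 1 of 8 genes called where 9.23% of all genes were. This change missed the threshold without replicates numbered 1 (0.41, adjusted p = 0.118) or 2 (0.35, adjusted p = 0.192). Whether the female and male changes differed was not settled: the difference was 0.42 (adjusted p = 0.148), which became 0.46 (adjusted p = 0.04) without replicate 3 of misaligned males at 00:00, a liver with 76.8 CPM beside 41.3 and 48.1.

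Stat5a was called in control males, with 25.7, 25.6 and 29.2 CPM at 20:00 and 18.7, 11.9 and 14.8 CPM at 04:00, a fitted amplitude of 0.35 ± 0.08 cresting at 19.3 h (edgeR adjusted p = 0.00277). All 3 livers at 20:00 were above all 3 at 04:00, but these were the times of the highest and lowest means. Their separation is therefore no support beyond the fit. The call was lost without replicates numbered 1 (0.39, adjusted p = 0.0561) or 2 (0.30, adjusted p = 0.0852). Its amplitude was 0.23 ± 0.08 in misaligned females (adjusted p = 0.113), 0.24 ± 0.08 in control females (adjusted p = 0.0687) and 0.09 ± 0.08 in misaligned males (adjusted p = 0.924), and its change in males was 0.33 (adjusted p = 0.101). Several of these lay close to the threshold: leaving out replicate 2 of misaligned females at 08:00 gave 0.28 in misaligned females (adjusted p = 0.0452). In control females, leaving out replicate 1 at 04:00 gave 0.25 (adjusted p = 0.048) and leaving out replicate 2 at 20:00 gave 0.28 (adjusted p = 0.0359). The male change was 0.38 without replicate 2 of misaligned males at 08:00 (adjusted p = 0.0479) and 0.39 without replicate 3 of control males at 08:00 (adjusted p = 0.0335).

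Cux2 was called rhythmic in misaligned females, at 39.9, 75.2 and 26.1 CPM at 08:00 and 5.37, 11.3 and 14.7 CPM at 20:00, which did not overlap. These were the times of its highest and lowest means, so the gap is no support beyond the fit. The amplitude was 0.84 ± 0.21, cresting at 6.57 h (edgeR adjusted p = 7.73e-04), and it was 0.44 without replicates numbered 2 (adjusted p = 0.339). In control females Cux2 was at 12.3, 20.8 and 56.6 CPM at 08:00 and 15.1, 15.2 and 16.8 CPM at 20:00, for an amplitude of 0.44 ± 0.21 that crested at 9.02 h (adjusted p = 0.182). The female rhythms differed by 0.55 (adjusted p = 0.636), so a gain of rhythm in misaligned females was not shown.

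Ghr, Socs2, Cish, Bcl6 and Onecut1 were not called rhythmic in any class, with amplitudes of 0.10 to 0.16 for Ghr and of 0.09 to 0.47 for Socs2. In all, rhythms were called for 2 of the 8 genes in misaligned females (7.69% of all genes), 1 in control females (12%), 0 in misaligned males (0.00664%) and 2 in control males (10.8%). In misaligned males 1 of the 8 and 1183 of 15066 genes had an unadjusted p under 0.05 in the edgeR rhythm test. The rhythm changed in 0 of the 8 genes in females, where 0.192% of all genes were called, with 1236 of 15066 and 0 of the 8 at an unadjusted p under 0.05. The difference between the sexes in this change was called for 0 of the 8 and 1.73% of all genes. Female and male control rhythms differed in 0 of the 8 and 0% of all genes, with 739 genes and 0 of the 8 at an unadjusted p under 0.05.

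**Figure D4:**
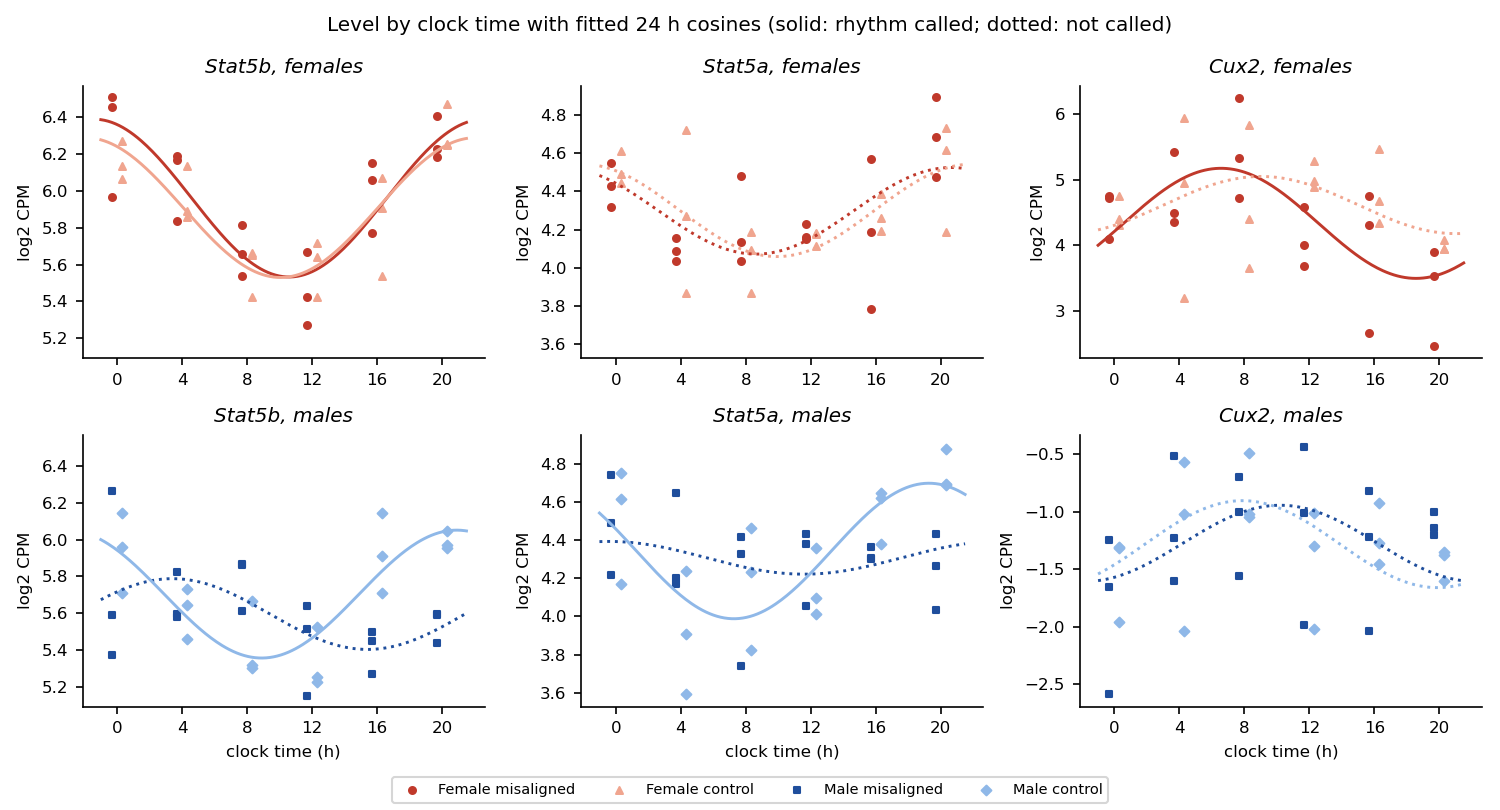
Log2 CPM of Stat5b, Stat5a and Cux2 by clock time in females (top) and males (bottom), 1 point per liver, with the fitted 24 h cosine of each class drawn solid where the rhythm was called and dotted where it was not. Stat5b crests between 20.9 h and 22.6 h in the 3 classes with a called rhythm. The Cux2 panels have different axes, since male livers had at most 7 counts.

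Livers of the same class and clock time differed widely for the feedback and transcription factor genes. In misaligned females at 16:00 Cish was at 9.98, 5.36 and 44.2 CPM, and in misaligned males at 12:00 at 6.20, 33.9 and 4.23 CPM. In each trio 1 liver stood several times above the others. The SD of log2 CPM within a clock time, averaged over the 6 times, was 0.74 for Cish in misaligned females, 0.44 in control females, 0.72 in misaligned males and 0.73 in control males. The median over all tested genes was 0.23, 0.25, 0.28 and 0.27 in the same classes.

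Bcl6 had an SD of 0.80, 0.83, 0.73 and 0.78 in misaligned females, control females, misaligned males and control males, and from 1.65% to 4.51% of tested genes were at least as variable. Onecut1 had 0.65, 0.80, 1.04 and 1.30, and from 0.365% to 4.87% of genes were at least as variable, though its few counts add counting error. Socs2 had 0.75, 0.53, 0.87 and 0.46, and Cux2 had 0.67 in misaligned and 0.60 in control females. Ghr had 0.13, 0.18, 0.26 and 0.31, Stat5a 0.18, 0.18, 0.22 and 0.23, and Stat5b 0.19, 0.16, 0.20 and 0.17. Stat5a and Stat5b were thus below the median gene in every class, and Socs2, Cish, Bcl6, Cux2 and Onecut1 lay above it. These are descriptions with no test.

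The scatter of Cish and Bcl6 was linked. The misaligned female livers just named had Bcl6 at 17.8, 16.0 and 5.32 CPM, so the liver with the most Cish had the least Bcl6. The misaligned males had Bcl6 at 24.2, 7.53 and 38.5 CPM, with the same order reversed. In control females at 12:00 Cish was at 37.8, 12.7 and 14.3 CPM and Bcl6 at 5.19, 23.7 and 16.6 CPM. After subtraction of each group's mean, Cish and Bcl6 had a Pearson r of -0.808 in misaligned females (rho -0.889, permutation p adjusted over 76 relations 0.0179) and of -0.878 in control females (rho -0.837, adjusted p = 0.019). In males r was -0.868 in misaligned livers (rho -0.816, permutation adjusted p = 0.00912) and -0.618 in control livers (rho -0.614, adjusted p = 0.172). Adjusted over the same relations, rho had permutation p of 0.0185, 0.0386 and 0.0215 in the first 3 classes and 0.157 in control males. Without the 2 livers farthest from the median of Cish, r was -0.770, -0.808, -0.798 and -0.731 in misaligned females, control females, misaligned males and control males.

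Cish and Socs2, both STAT5 targets, had r of 0.608 in misaligned females, 0.269 in control females, 0.551 in misaligned males and 0.621 in controls of that sex, none of them past the threshold (permutation adjusted p = 0.336, 0.403, 0.184 and 0.172). Socs2 and Bcl6 had r of -0.543 in misaligned females, -0.000337 in control females, -0.230 in misaligned males and -0.0667 in male controls (permutation adjusted p = 0.206, 0.999, 0.783 and 0.933). The link to Bcl6 was therefore called for Cish and not for Socs2, and the difference between the 2 relations was not tested.

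The Onecut1 window was added to this comparison after the data were examined and is given as a description. Its deviations followed those of Cish, with r of 0.893 in misaligned females, 0.819 in control females, 0.802 in misaligned males and 0.795 in control males (18 livers each). With Bcl6 r was -0.826, -0.866, -0.769 and -0.609 in the same classes. With Socs2 it was 0.811, 0.0168, 0.405 and 0.639, so it varied by class. The Onecut1 gene counts, far fewer, had r of 0.657 with Cish and -0.574 with Bcl6 over all 72 livers. Among 11692 genes of at least 1 CPM, Onecut1 was the gene whose deviations over the 72 livers were most like those of Cish, and Bcl6 the one least like them (r = -0.769).

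**Figure D5:**
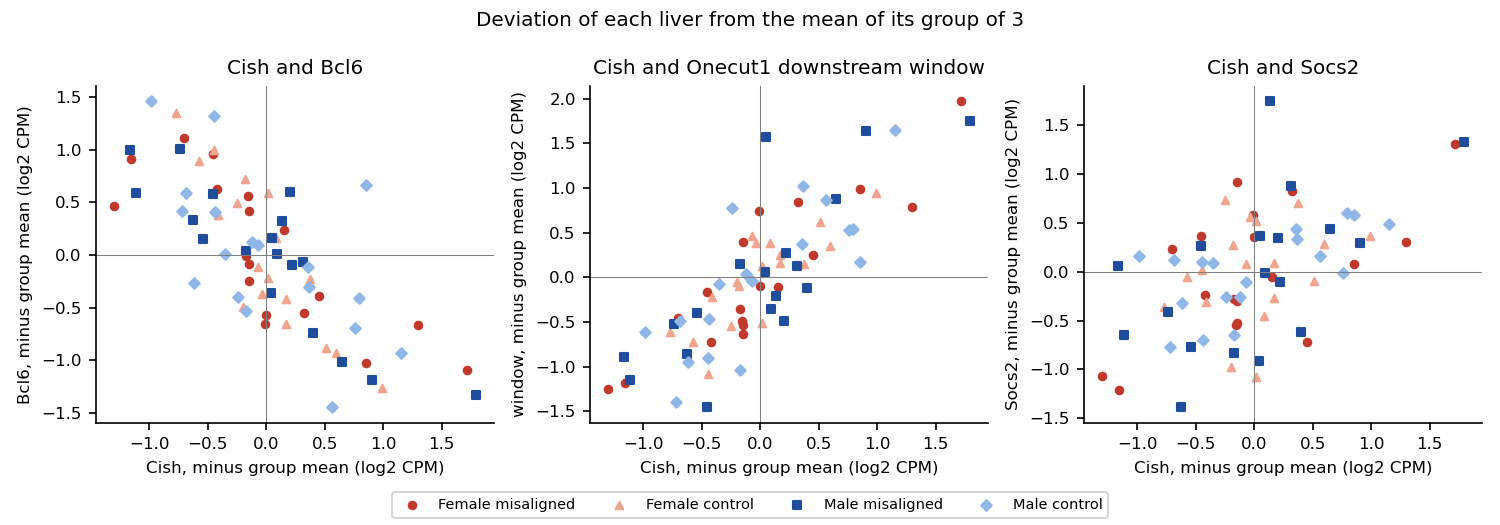
Deviation of each liver from the mean of its group of 3, in log2 CPM, for Cish against Bcl6, against the Onecut1 downstream window and against Socs2. Each point is 1 of 72 livers. Livers high in Cish were low in Bcl6 and high in the Onecut1 window, with r of -0.769 and 0.828 over all 72, while r with Socs2 was 0.531.

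The same relations were computed for each gene against the mean of 18 male-biased and of 24 female-biased liver genes in each liver. In misaligned males Ghr followed the male-biased mean with r of 0.903 (rho 0.926, permutation adjusted p = 0.0179), while Stat5a went against it with r of -0.805 (rho -0.816, adjusted p = 0.00912) and followed the female-biased mean with r of 0.784 (rho 0.763, adjusted p = 0.019). In control females Ghr followed the female-biased mean with r of 0.775 (rho 0.849, permutation adjusted p = 0.019). In control males Socs2 followed the female-biased mean with r of 0.710 (rho 0.752, permutation adjusted p = 0.0214). Ghr and the female-biased mean in misaligned males had r of -0.768 (rho -0.820), with permutation adjusted p of 0.053 for r and 0.0215 for rho. Without the 2 farthest livers these r were 0.860, -0.762, 0.706, 0.776, 0.675 and -0.684. Of the 76 relations, 8 passed the threshold by r and 9 by rho. Whether a relation differed between classes was not tested.

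Other genes of growth hormone receptor signalling came from a list of 17, of which 16 were tested. Among misaligned livers 6 were higher and 1 lower in females, where 37.7% of all tested genes were called in either direction, and among controls 6 were higher and 0 lower, where 32.9% were. The 7 and 6 of 16 called lie near those shares and are no result about the list. Prlr, which encodes the prolactin receptor and is also in the female-biased list, was at 265 to 379 CPM in misaligned females and 220 to 485 CPM in control females. It was at 24.8 to 87.4 CPM in misaligned males and 23.0 to 139 CPM in control males, below every female liver. The differences were 2.71 ± 0.16 among misaligned livers (edgeR adjusted p = 1.77e-20) and 2.49 ± 0.15 among controls (adjusted p = 3.92e-19). Lepr, the leptin receptor, was higher in females by 2.33 ± 0.19 (adjusted p = 1.46e-14) and 1.92 ± 0.19 (adjusted p = 7.69e-12).

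The adaptor gene Sh2b1, whose protein binds JAK2, was higher in females by 0.31 ± 0.06 among misaligned livers (edgeR adjusted p = 1.85e-05) and 0.27 ± 0.06 among controls (adjusted p = 1.63e-04). Stat3 was higher among misaligned livers by 0.35 ± 0.08 (adjusted p = 5.03e-04), and the adaptor gene Sh2b2 among controls by 0.64 ± 0.13 (adjusted p = 6.71e-05). Jak2, the kinase gene itself, had medians of 15.9 CPM in misaligned females, 15.4 CPM in control females, 16.3 CPM in misaligned males and 15.3 CPM in control males. It differed between the sexes by 0.02 ± 0.07 among misaligned livers (adjusted p = 0.87) and by -0.05 ± 0.07 among controls (adjusted p = 0.633). The median of the list was 0.10 among misaligned livers and 0.15 among controls. No gene of the list was called for misalignment in either sex. Ptpn1, a phosphatase gene, was called rhythmic in control females with an amplitude of 0.29 (edgeR adjusted p = 0.0461).

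Of the 8 tested genes of the growth axis, 3 were higher and 0 lower in females among misaligned livers, and 3 were higher and 1 lower among controls. These 3 and 4 of 8 also lie near the 37.7% and 32.9% of all genes called in either direction. Igf1, the main endocrine product of growth hormone action in liver, was at 270 to 514 CPM in misaligned females and 243 to 547 CPM in control females, against 223 to 538 CPM in misaligned males and 213 to 469 CPM in control males. The female excess was 0.15 ± 0.10 among misaligned livers (edgeR adjusted p = 0.214) and 0.28 ± 0.10 among controls (adjusted p = 0.0199), with wide overlap. Igfals, which encodes the subunit that stabilises circulating IGF1, was higher in females by 1.10 ± 0.15 (adjusted p = 4.76e-08) and 1.16 ± 0.15 (adjusted p = 1.88e-08). The binding protein gene Igfbp2 was higher by 1.00 ± 0.17 (adjusted p = 5.13e-06) and 0.73 ± 0.17 (adjusted p = 6.59e-04). Igfbp3 was higher by 0.23 ± 0.08 among misaligned livers (adjusted p = 0.0241), and the acute phase gene Serpina3n was lower by -0.32 ± 0.09 among controls (adjusted p = 0.00712).

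Igfbp4, another binding protein gene, was rhythmic in misaligned females (0.33, edgeR adjusted p = 0.00688), control females (0.49, adjusted p = 1.71e-05) and control males (0.40, adjusted p = 6.67e-04). Its rhythm in misaligned males differed from that in control males by 0.66 (adjusted p = 8.49e-05). Igfbp1 was rhythmic in control males with an amplitude of 1.16 (adjusted p = 0.025). No gene of the growth axis was called for misalignment averaged over clock times.

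The 2 lists of sex-biased liver genes hold genes picked for a known sex bias in mouse liver, and their values serve to place the 8 genes beside known outputs. Of 18 tested male-biased genes, 18 were lower in females among misaligned livers and 17 among controls, with medians of -4.34 and -3.95. Of 24 female-biased genes, 24 and 23 were higher, with medians of 6.82 and 6.38. Of all tested genes, 19.9% were lower in females among misaligned livers and 17% among controls, and 17.8% and 16% were higher. Cyp4a12a, a male-specific cytochrome P450, was at 0 to 1.19 CPM in misaligned females and 87.8 to 517 CPM in misaligned males. Mup20, a major urinary protein, was at 13.7 to 228 CPM in misaligned females and 2084 to 7624 CPM in misaligned males. Slc22a26, a female-biased transporter gene, was at 66.5 to 268 CPM in misaligned females and 0.240 to 4.11 CPM in misaligned males. The Cyp4a12, Mup and Sult2a families hold near-identical copies, so the split of reads among their members is uncertain.

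For misalignment averaged over clock times, 0 of the 18 male-biased and 0 of the 24 female-biased genes were called in either sex. The male-biased list had a median of 0.03 in females and 0.30 in males, and the female-biased list -0.07 in females and -0.27 in males, against 0.00 and 0.01 over all genes. Elovl3, a male-biased fatty acid elongase gene, changed its rhythm in males by 1.96 (edgeR adjusted p = 0.00589), and of the female-biased genes 4 did: Fmo2 by 0.95 (adjusted p = 2.46e-04), Tox by 0.84 (adjusted p = 0.00123), Cyp2b10 by 2.33 (adjusted p = 0.00977) and Cyp39a1 by 0.82 (adjusted p = 0.00995). Each was compared between misaligned and control males, where the rhythm changed in 9.23% of all tested genes.

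Over the 24 group means, the genes most like each of the 8 were found by Pearson r among 11692 genes of at least 1 CPM, as a description. Stat5b was most like Dpp9 (r = 0.936), Cluh (0.935) and Cnnm3 (0.932), and Stat5a most like Sox9 (0.846), Pdk4 (0.844) and Ip6k2 (0.825). Cish was most like Uba7 (0.889), Rsph4a (0.888) and Trim24 (0.887), and Socs2 most like Zfp516 (0.867), Cbx7 (0.859) and Tmem147os (0.836). Bcl6 was most like Ugt2b1 (0.832), Cyp2f2 (0.808) and Serpine2 (0.805). Cux2 was most like Xist (0.989), Sult2a1 (0.989) and Sult2a2 (0.989), all of which split the groups by sex. Ghr was most like Aadat (0.880), Acaa2 (0.872) and Slc25a13 (0.865), and Onecut1 most like Dcaf5 (0.688), Arih2 (0.668) and Fam53a (0.631).

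Over deviations of the 72 livers from their group means, Ghr was most like Il1rap (r = 0.920) and Ugt2a3 (0.916), a closer likeness than any other of the 8 genes had. Stat5b was most like Numa1 (0.763), Khnyn (0.713) and Tab2 (0.697), and Stat5a most like Phc2 (0.671), Iqsec1 (0.644) and Zfp385a (0.641). Socs2 was most like Slc25a30 (0.670), Slc6a16 (0.633) and Slc38a7 (0.597). Cish, after Onecut1 (0.657), was most like Pex26 (0.601) and Slc25a30 (0.588). Bcl6 had weak matches in Baat (0.490) and Fxr1 (0.477), and Cux2 in Zfp598 (0.580), Phf1 (0.559) and Cldn3 (0.540). Onecut1 was most like Dcaf5 (0.681), Cish (0.657) and Gtf3c4 (0.652). Livers of a group share their clock time, sex and treatment, and the points of a gene pair share library and depth.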

How the data were processed

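Per the labels, poly(A) RNA of whole liver was sequenced as paired reads of 150 bases, and per the submitters' processing notes aligned with STAR 2.6.0c to GRCm38. The counting program and its annotation are not given in the sources used here. The deposited tables hold whole-number read counts per gene, exon, intron, flanking window and junction, by strand (junctions excepted), in a version for reads of 1 feature and one that adds ambiguous reads, per the file headers and names. The first version was used. Library totals were close to each other in the deposited counts. Unmatched sample columns numbered 0.

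From the deposited counts, edgeR 4.0.16 (R 4.3.3) gave TMM factors (0.836 to 1.17), a filter by group that kept 15066 of 27846 genes, and quasi-likelihood tests with 24 group means (48 residual degrees of freedom) or 4 classes with 24 h cosines (60). P-values are 2-sided and adjusted by Benjamini-Hochberg over all genes, and adjusted p under 0.05 was called. A prior count of 2 was added for log2 CPM. Relations between livers used 100000 permutations within clock time. Junction use was tested with edgeR's differential splicing test. Promoters are RefSeq's, gene positions GENCODE vM21's. The tests were tried on simulated data. Limma 3.58.1 and DESeq2 1.42.0 served as alternatives, with other scalings, filters and left-out livers.

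The 8 genes and all lists were chosen with earlier results of these data known. Flanking windows, junction use, the Onecut1 relations, nonoverlapping introns and the older dispersion estimate were added after seeing the data. Named genes were all 8, up to 4 called genes with the smallest p per list and comparison, Jak2 and Igf1, and the 3 most alike genes, a few of which are not reported here. Replicate numbers did not pair livers. Identical libraries were looked for and none found. The labels call the replicates biological, so p-values measure the spread between mice as far as that holds.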

Additional observations from a re-analysis of the deposited data

Results flagged for a closer look

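Igfbp4 and Fmo2 were singled out because the change of rhythm under misalignment differed between females and males by a direct test of that difference. For Igfbp4 the difference was 0.70 on the log2 scale (edgeR adjusted p = 0.0138), and its mean level was 1129 CPM in misaligned females, 1081 CPM in control females, 994 CPM in misaligned males and 950 CPM in control males. For Fmo2 the difference was 1.01 (edgeR adjusted p = 0.0249), and its mean level was 75.2 CPM in misaligned females, 80.7 CPM in control females, 22.0 CPM in misaligned males and 23.6 CPM in control males. Neither gene stands out in this test: of the 19 core clock genes 14 were called in it, and of all 15066 tested genes 260 (1.73%). None of the 8 growth hormone and STAT5 genes was called.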

How the results depend on the processing

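Counts of called genes among the 8 were recomputed under each alternative, and no called difference in mean level changed direction. Differences that were not called were not followed for direction, and fitted amplitudes have no sign to change. Leaving out replicate number 1, 2 or 3, or single livers, gave 3 to 5 of 8 for the sex difference in misaligned livers and 3 to 5 in controls, 1 to 3 for rhythms in misaligned females, 1 to 2 in those of control females and 1 to 2 in those of control males. The rhythm change in males had 0 to 2 and its difference between sexes 0 to 1. In an edgeR fit of misaligned females alone, 1 gene was rhythmic in place of 2, since Cux2 had an adjusted p of 0.0584. With ambiguous reads counted, 2 were rhythmic in control females in place of 1. Without a filter on low counts, Bcl6 among controls had -0.77 (edgeR adjusted p = 0.0522). The other scalings, DESeq2, limma-voom, the older dispersion estimate and a stricter filter (mean CPM of 5) moved no count by over 1.5 times. A fit of the compared livers alone has no value of its own where all 4 classes are compared. The intron alternatives left each count of called genes as it was, and a prior count of 0.5 left 8 relations called, while rank correlation called 9, among them Ghr with the female-biased mean in misaligned males. Same-numbered livers did not deviate together (198 of 828 pairs had r over 0.1, and 24 of 72 libraries correlated best with their own number). With the replicate number as a replicate block, 0 calls among the 8 genes differed, with 5 called for the sex difference in misaligned livers and 5 in controls, 2 rhythms in misaligned females, 1 among female and 2 among male controls, and 1 rhythm change in males. The cause of these shifts was not tested. Low counts limit Cux2 in males and Onecut1 throughout, which had 2 to 140 counts per liver with ambiguous reads left out.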
